A study of Mus musculus with 4 samples.

Results

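The genes described here are 54 genes of DNA replication and mitosis, taken from a list of standard cell cycle genes and followed over 4 microarrays of mouse liver. A gene was a member where at least 1 non-control probe of the array carried an accession that RefSeq's gene table gives to it, and the rule uses no measured value. The list itself, however, was chosen with earlier results of these data known, so the shares set beside all genes below are descriptions. All 54 were found, on 84 of the 56605 non-control probes; 28 members have 1 probe, 22 have 2 and 4 have 3. They are 54 of 23458 genes that could be named in this way. The members were divided by the phase in which their proteins mainly act, giving 20 genes of the G1/S transition and DNA replication and 34 of G2 and mitosis.

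A dividing cell copies its DNA in S phase and separates the copies in mitosis. Origins of replication are loaded with the MCM helicase in G1 and fired when cyclin-dependent kinases become active, while cyclin B with CDK1 drives entry into mitosis, and the anaphase-promoting complex ends it. Most hepatocytes of an adult liver are at rest, so transcripts of these genes are scarce there, and immune, stellate and endothelial cells of the organ can divide too. Transcription is timed: E2F factors act at G1/S promoters, and the MuvB complex, with B-MYB and FOXM1, acts through the CHR element at G2/M promoters, often beside CCAAT boxes bound by NF-Y.

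Whole livers of male mice gave the total RNA, which was labelled with Cy5 and hybridised at 1 array for each of 4 groups, and the labels carry a time of 60 d whose starting point they do not give. The control array is from naturally aged mice without a drug. The diabetic array is from aged mice made diabetic as a model of type 2 diabetes. The metformin array is from such diabetic mice given metformin, a first-line glucose-lowering drug, and the combination array is from such diabetic mice given metformin with astragalus polysaccharide, a plant polysaccharide preparation. All 4 groups were aged, and 3 of them share the diabetic model. The sources used here do not give the strain, the doses, how diabetes was made, or whether 1 or several mice gave each RNA.

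With 1 array per group, no difference between groups can be tested and no p-value is given: every comparison below is between 2 arrays. In whole liver, moreover, fewer dividing cells and less RNA per dividing cell cannot be told apart. Probes printed at 10 spots gave a technical SD of 0.09 to 0.10 for a log2 difference between 2 arrays, which leaves out the spread between mice, RNA preparations and hybridisations. A member's probe has 1 spot, and the error printed after ± is the scanner software's own error for the spots compared. The 4 arrays correlated at 0.950 to 0.965 over 24363 probes. Alb, the hepatocyte marker albumin, lay between 48107 and 70846 scaled units on every array. Of all probes, 51.9% to 56.5% were well above background by the software's call, and no spot was saturated. Of the 84 member probes, 62, 51, 71 and 54 were well above background on the control, diabetic, metformin and combination array, in that order, and 47, 41, 50 and 41 members had a measured level there.

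The metformin array held the highest levels of these genes. Among the 36 members well above background on all 4 arrays, 27 (75%) were highest on the metformin array, against 23.3% of 12699 genes. The diabetic array was the lowest of the 4 for 21 of the 36, against 20.9% of those genes. By phase, the diabetic array was lowest for 14 of 18 G1/S members and for 7 of 18 G2/M members, and for another 7 of the latter the combination array was lowest. The exceptions to the metformin maximum were few: Cdt1, Cdc45, Pcna and Cenpm were highest on the combination array, Tk1, Ccne1, Cenpa and Kif2c on the control array, and Cks2 on the diabetic array. The plot of signals by array shows the range, from genes near background on 3 arrays to Pcna, which hardly moved.

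**Figure D1:**
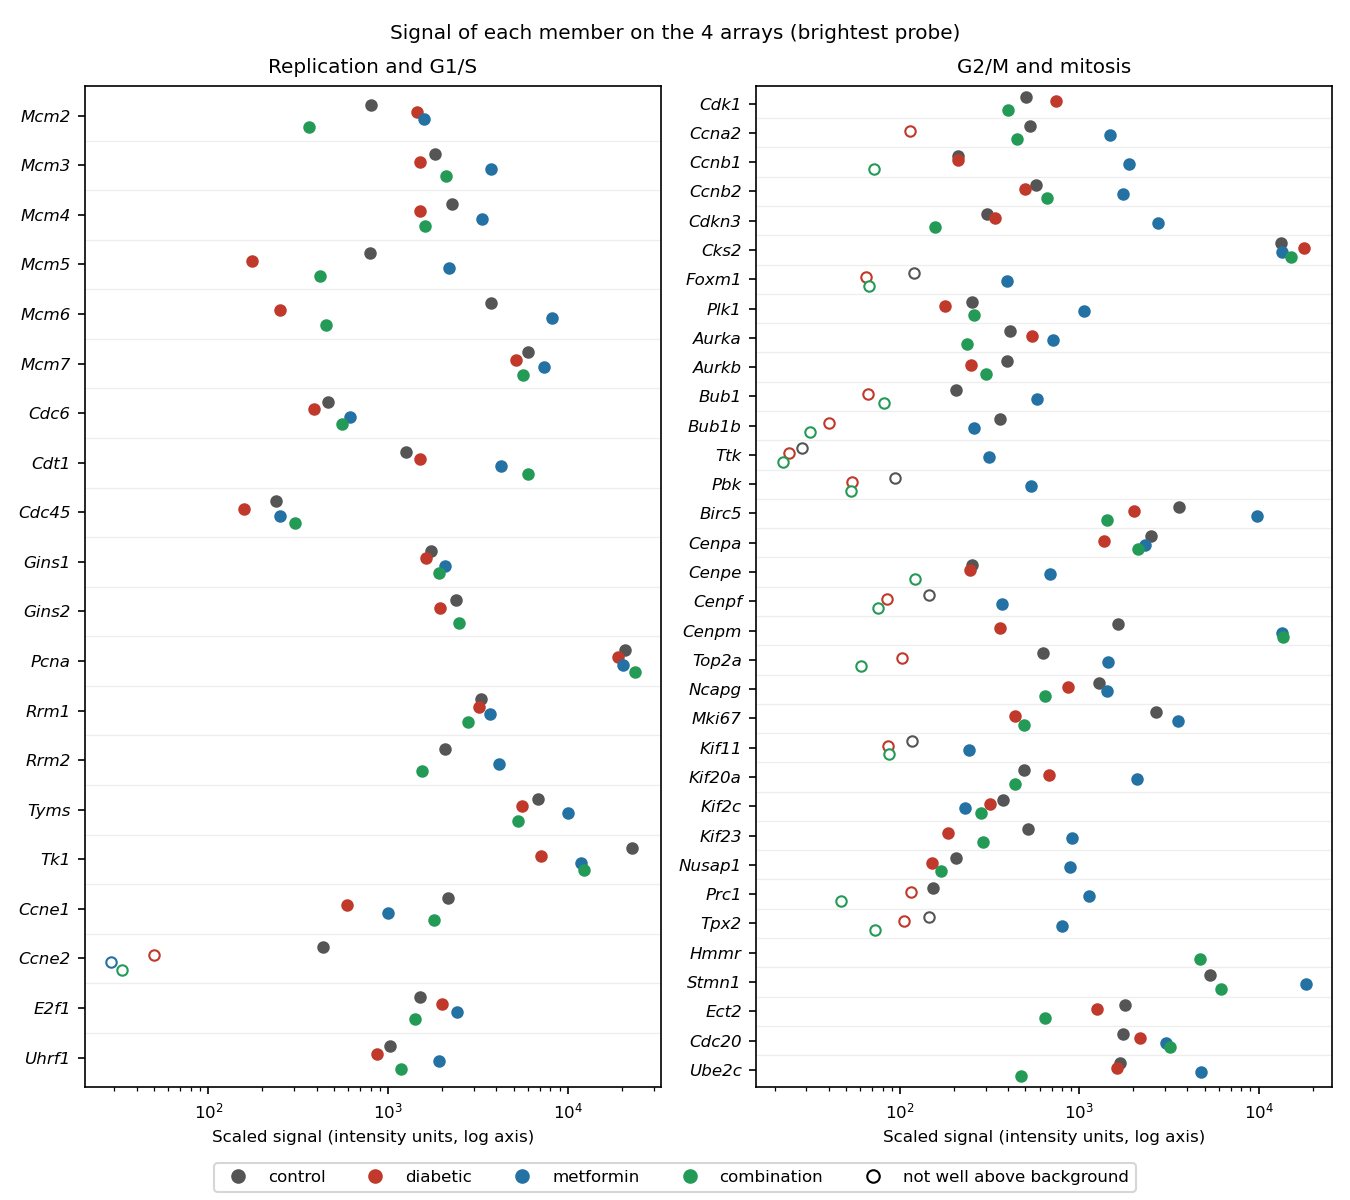
Scaled signal (x axis, intensity units, log axis) of the brightest probe of each of the 54 members (y axis), with 1 colour for each of the 4 arrays, open circles for signals not well above background and no point where the spot was dropped as an outlier. In most rows the metformin point lies furthest right, and 27 of the 36 members measured on all 4 arrays were highest there.

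Comparing metformin with diabetic, 38 members were measured on both arrays, with a median log2 difference of 1.30, against -0.06 over 13897 genes. Of the 38, 36 were above 0, 21 were at least 2-fold higher (9.66% of all genes were) and 0 were 2-fold lower or more (3.10%). A further 10 members were well above background on the metformin and not the diabetic array. For 9 of those, out of 54 members in all, the bound was at least 2-fold higher. Of all 23458 named genes, 1458 were seen on the metformin and not the diabetic array, and 494 (2.11% of the 23458) had such a bound. The G2/M members stood further apart than the G1/S members: their median was 1.59 over 20 genes, with 14 at least 2-fold higher and all 9 of the bounds, against 0.74 over 18 genes with 7 at least 2-fold higher. Without the filter on dim probes, 32 of 52 members were at least 2-fold higher, as were 2856 of 22287 genes. Those counts include probes not well above background.

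Comparing combination with metformin, the members were lower on the combination array. The median was -1.09 over 37 members, against 0.03 over 14360 genes; 20 were at least 2-fold lower (9.82% of genes) and 0 at least 2-fold higher (2%). Another 11 were seen on the metformin and not the combination array, with a bound at least 2-fold lower (2.06% of named genes). The G2/M median was -1.61 over 18 genes and the G1/S median -0.69 over 19. Without the filter on dim probes, 33 of 53 members were at least 2-fold lower, as were 2894 of 22499 genes.

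Comparing combination with diabetic, the 2 arrays lay closer for these genes. The median was 0.17 over 39 members, against 0.02 over 14105 genes, with 4 members at least 2-fold higher (3.73% of genes) and 4 lower by as much (6%). Cenpm, Cdt1, Ccne1 and Mcm5 were higher, and Mcm2, Ube2c, Aurka and Cdkn3 were lower; 1 bound, that of Cenpe, was also at least 2-fold lower (0.801% of named genes). G1/S and G2/M members lay on opposite sides of 0, with medians of 0.41 over 18 genes and -0.25 over 21. The counts depend on the array scale: with the 75th percentile taken over spots left after outliers were dropped, 7 members were at least 2-fold lower and the median turned to -0.07, while that of all genes went to -0.21. All comparisons with the diabetic array share that array, and so cannot be read as independent. The same holds for the metformin array. The rise from diabetic to metformin and the fall from metformin to combination both rest on it.

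Comparing diabetic with control, the shift was smaller. The median was -0.25 over 41 members, against -0.07 over 13472 genes; 8 members were at least 2-fold lower (5.17% of genes) and 1, Stmn1, was at least 2-fold higher (6.58%). Another 3 were seen on the control and not the diabetic array with a bound at least 2-fold lower (0.955% of named genes), namely Ccne2, Bub1b and Top2a. The 8 were Mcm6, Mki67, Mcm5, Cenpm, Ccne1, Ccna2, Tk1 and Kif23. Against control, the metformin array had 20 of 43 members at least 2-fold higher (9.44% of genes) and 1, Ccne1, lower (4.47%). The combination array had 2 of 40 higher (4.91%), Cenpm and Cdt1, and 7 lower (5.64%).

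**Figure D2:**
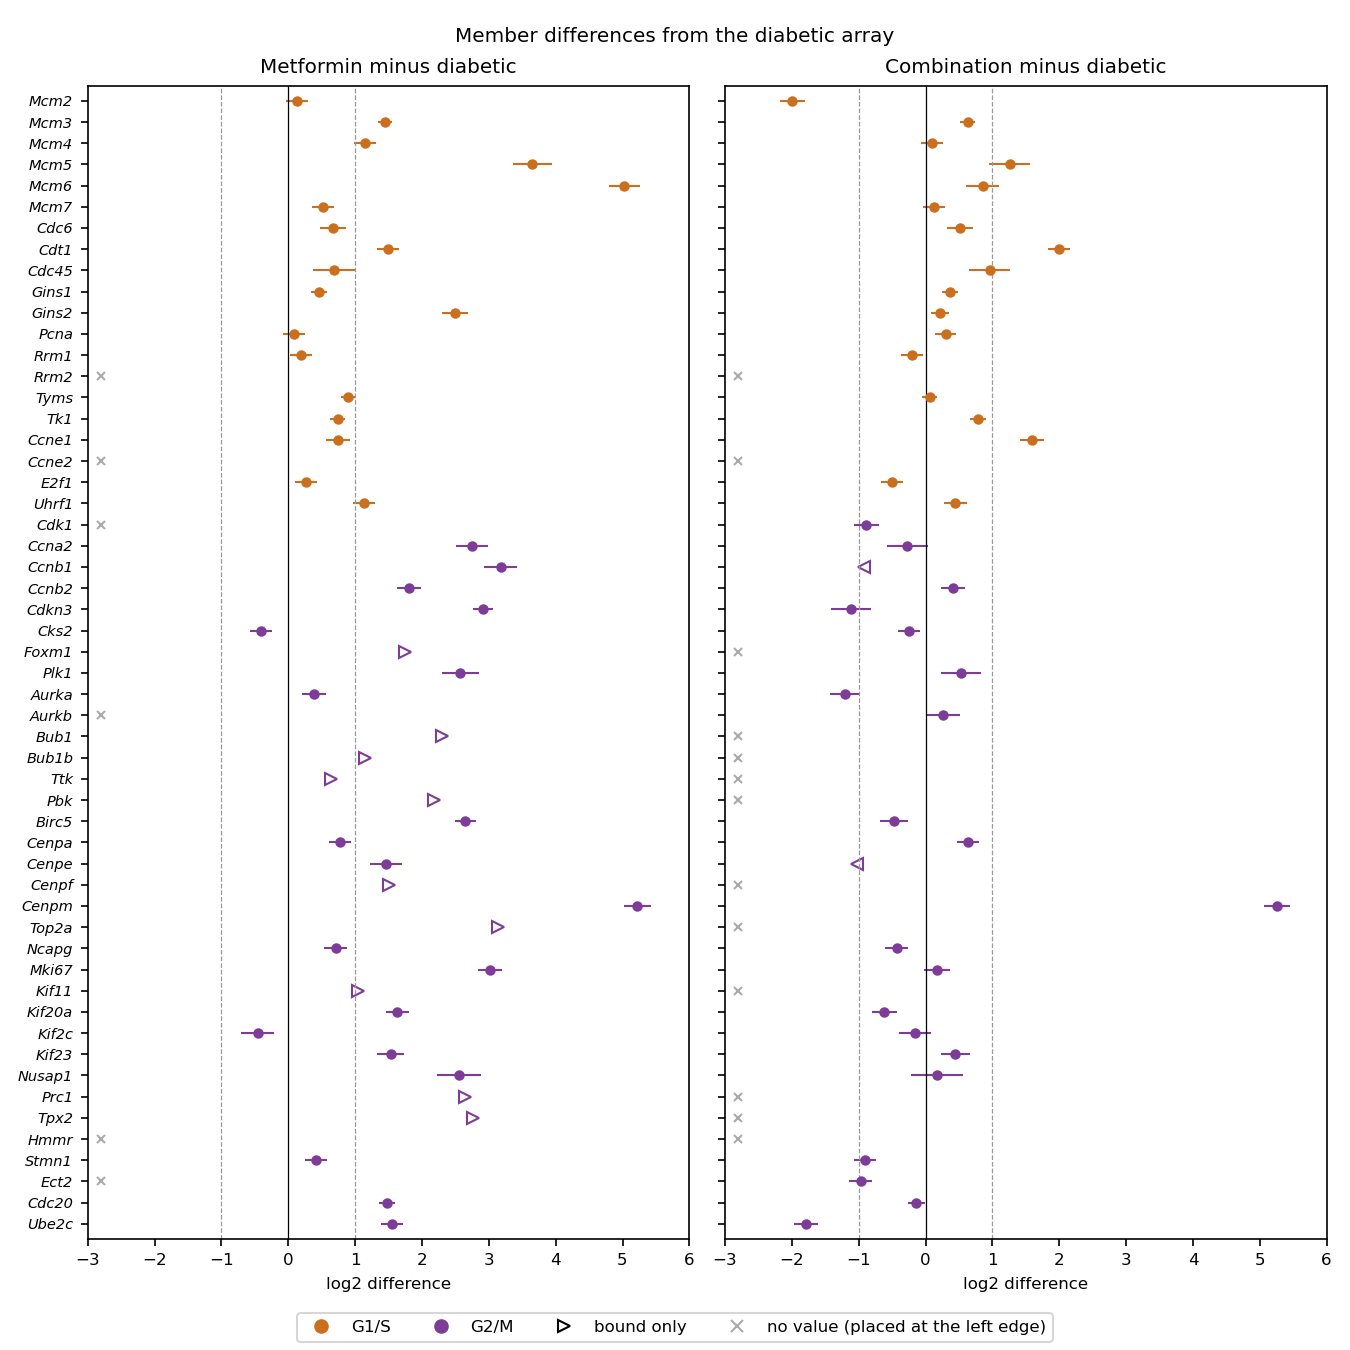
Log2 difference (x axis) of each member (y axis, ordered by role) from the diabetic array on the metformin array (left) and the combination array (right), with the software's error as bars, open triangles for bounds and dashed lines at 2-fold. On the left 36 of 38 measured members lie above 0 and none lies below the lower dashed line, and on the right they scatter around 0, with Cenpm at 5.26.

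In what follows, the scaled signal of a member is given in the order control, diabetic, metformin, combination. The scaled signal is the processed intensity after each array was brought to a common 75th percentile of 3172 units. A value in square brackets was not well above background, and "no value" stands where the spot was dropped as an outlier. Probes differ in brightness for reasons of design, so signals are compared between arrays and never between genes.

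The MCM2-7 proteins form the ring-shaped helicase that is loaded at origins, and their genes are standard markers of cells licensed to replicate. Mcm6 had scaled signals of 3726, 251, 8195 and 454. Its metformin level was 32.6-fold above the diabetic level (log2 5.03 ± 0.23), and its diabetic level 14.8-fold below the control. A dimmer probe of Mcm6, at 149.7, [25.9], 212 and [22.9], was seen on the control and metformin arrays only. Mcm5, whose protein sits at the ring's gate with MCM2, had scaled signals of 795, 174, 2184 and 416, a metformin level 12.5-fold above the diabetic (log2 3.65 ± 0.29). Both genes were thus low on the diabetic and combination arrays and high on the other two.

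The other subunits moved less. The 3 probes of Mcm3 gave 825, 359.5, 985 and 616, then 808, 453, 1353 and 699, then 1819.6, 1505, 3751 and 2106, all highest on the metformin array, for a log2 difference from the diabetic array of 1.45 ± 0.11. Mcm4 had scaled signals of 2276, 1504, 3332 and 1613 (log2 1.15 ± 0.17, metformin minus diabetic). Mcm2 had another pattern, with 799, 1439.9, 1577 and 362. For this subunit the diabetic and metformin arrays were close (log2 0.13 ± 0.17) and the combination array was lowest, 4.36-fold below metformin. Mcm7 stayed within 2-fold, with 6000.4, 5167, 7379.7 and 5643 at its brighter probe. The 6 subunits work in equal numbers in the ring, but their transcripts did not keep a fixed ratio: from diabetic to metformin the differences ran from 0.13 for Mcm2 to 5.03 for Mcm6.

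**Figure D3:**
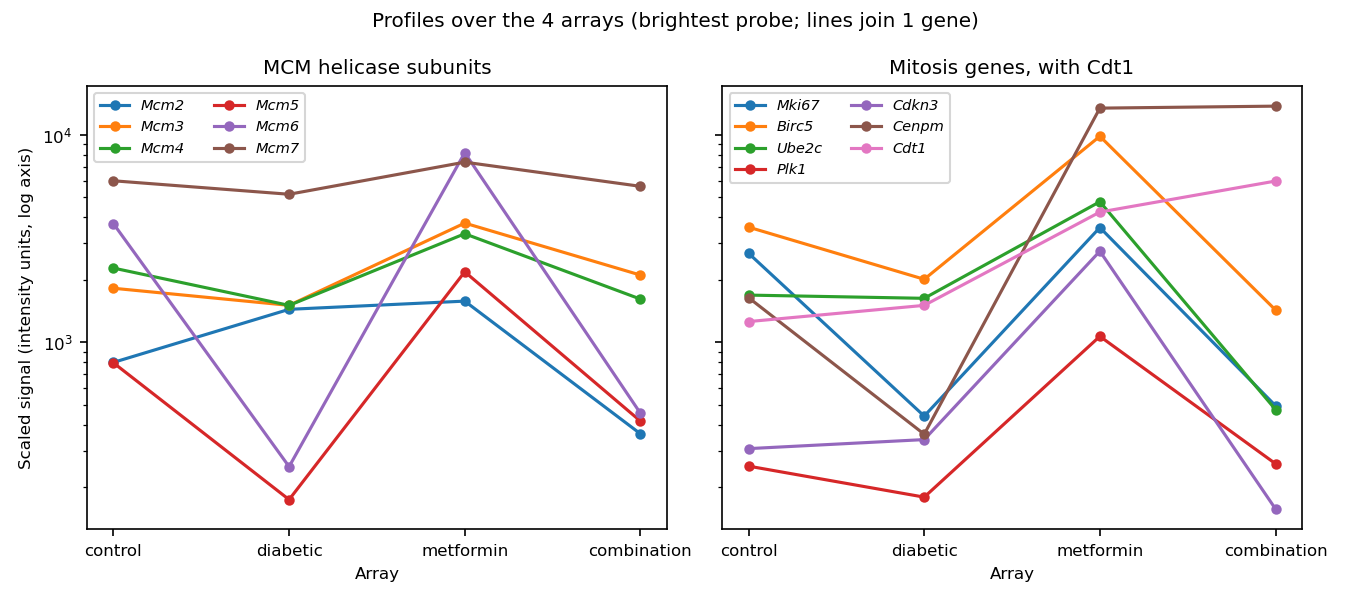
Scaled signal (y axis, intensity units, log axis) on the 4 arrays (x axis) for the MCM subunits (left) and for 6 mitosis genes with Cdt1 (right), brightest probe, with lines that join the points of 1 gene. Mcm5 and Mcm6 dip on the diabetic array and peak on the metformin array, and Cenpm and Cdt1 stay high on the combination array while the other mitosis genes shown drop.

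The promoters of Mcm5 and Mcm6, the G1/S members with the largest metformin differences, are shown because each holds a pair of overlapping E2F sites. Each sequence is the 200 bases before the RefSeq start site in GRCm38.p6, read 5′ to 3′ on the gene's strand; capitals mark CCAAT boxes (CCAAT, or ATTGG on the other strand) and E2F sites.
Mcm6, chr1:128359706-128359905, minus strand: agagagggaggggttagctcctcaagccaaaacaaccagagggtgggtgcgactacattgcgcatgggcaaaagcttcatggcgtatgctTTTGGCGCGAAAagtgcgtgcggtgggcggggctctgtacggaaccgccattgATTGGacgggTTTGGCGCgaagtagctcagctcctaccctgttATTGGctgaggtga
Mcm5, chr8:75109309-75109508, plus strand: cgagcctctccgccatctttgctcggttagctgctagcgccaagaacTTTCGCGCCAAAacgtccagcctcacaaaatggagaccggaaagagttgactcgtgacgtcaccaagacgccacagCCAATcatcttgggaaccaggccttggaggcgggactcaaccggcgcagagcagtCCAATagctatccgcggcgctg
Positions are counted from the start site. In Mcm6 the overlapping pair starts at -110, a single E2F site starts at -47, and CCAAT boxes in reverse orientation at -57 and -14. In Mcm5 the pair starts at -153 and the CCAAT boxes shown at -77 and -22. Neither holds a CHR.

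Among factors that load or fire origins, Cdt1, which brings the MCM ring to the origin, had scaled signals of 1257, 1504, 4240.0 and 5983. It was higher on both treated arrays than on the other two, by 2.82-fold for metformin over diabetic and 3.98-fold for combination over diabetic (log2 1.99 ± 0.17). Gins2, a subunit of the GINS complex that activates the helicase, had 411, 364, 2055 and 387, a peak on the metformin array only (log2 2.50 ± 0.19). That call rests on 1 probe, since the spot of the other was dropped as an outlier on the metformin array; at 2374, 1946, no value and 2468 the other probe shows little change over the remaining 3. Cdc6, Cdc45 and Gins1, of the same licensing and firing steps, differed by less than 2-fold between any pair of arrays where measured.

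Genes of the sliding clamp and of nucleotide supply had the lowest median of the roles from diabetic to metformin, at 0.47 over 4 genes. Pcna, the clamp that holds polymerases on DNA, had scaled signals of 20692, 19138, 20362 and 23552, and its largest difference between arrays was 0.30 in log2. Rrm1, the large subunit of ribonucleotide reductase, stayed within 0.40. Its small subunit Rrm2, which is made mainly in S phase, had 2069, no value, 4168 and 1544, with the diabetic spot dropped as an outlier, so no difference from the diabetic array could be had. The metformin level was 2.01-fold above control, a call kept under 5 of 8 other settings, and 2.70-fold above combination. Tyms, which makes thymidylate, stayed within 0.90. Tk1, thymidine kinase of the salvage route, departed from the rest: its probes gave 22772, 7099, 11912 and 12329 at one probe and 12830.2, 4809, 7963 and 8233 at the other, highest on the control array and 2.93-fold lower on the diabetic (log2 -1.55 ± 0.12), with both treated arrays between.

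Of the G1/S regulators, Ccne1, cyclin E1, partner of CDK2, followed the order of Tk1 on the control and diabetic arrays, with 2169, 593, 994 and 1794. The combination array was 3.02-fold above the diabetic (log2 1.60 ± 0.18). Ccne2, cyclin E2, had 435, [49.6], [28.9] and [33.1] and was seen on the control array only, at least 3.70-fold above diabetic. Uhrf1, which carries DNA methylation over to the new strand, had 1028, 871, 1912 and 1186 at its measured probe and was 2.19-fold higher on metformin than on diabetic. E2f1, a transcription factor of G1/S genes, differed by at most 0.77 in log2 between arrays.

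Of the cyclins and regulators of CDK1, 4 were at least 2-fold higher on the metformin than on the diabetic array and Foxm1 had a bound of that size. Ccnb1, cyclin B1, had scaled signals of 209, 210.4, 1903 and [71.6] at its brightest probe. This probe was 9.05-fold higher on metformin than on diabetic (log2 3.18 ± 0.25), and the other 2 probes, with [85.9], [59.2], 406 and [37.2] at one and [149], [123], 289 and [96.9] at the other, were seen on the metformin array only. Ccnb2, cyclin B2, had 576, 497, 1741 and 662, again with a single high array. Ccna2, cyclin A2, used in S phase and G2, had 617, 196, 1319 and 162 at one probe and 532, [114], 1490.2 and 448 at the other. It differed from the cyclins B in being clearly lower on the diabetic than on the control array, by 3.14-fold. Cdkn3, a phosphatase that acts on CDKs, had 307, 339, 2746 and 157 at one probe and 219.9, 222, 1557 and [97] at the other, 7.53-fold higher on metformin than on diabetic and 17.5-fold lower on combination than on metformin. Foxm1, the transcription factor of G2/M genes, had [120.1], [65], 393 and [67.2] at one probe, seen on the metformin array only and at least 3.35-fold above diabetic. Its other probe, at [28.0], [23.8], [21.0] and [22.6], was not above background on any array, so the bound rests on 1 probe. Cdk1 itself had 503, 739, no value and 400.5: its metformin spot was dropped as an outlier, and the other 3 arrays lay within 2-fold. Cks2, a small CDK-binding protein, stayed within 0.44 in log2.

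Most mitotic kinases and their partners were highest on the metformin array. Plk1, the kinase of centrosome maturation and mitotic entry, had scaled signals of 252, 179, 1067 and 259, 5.96-fold higher on metformin than on diabetic (log2 2.58 ± 0.27). Birc5, survivin of the chromosomal passenger complex, had 3586, 2009.8, 9837 and 1429 at one probe and 386, 197, 1579 and 144 at the other, with both probes highest on the metformin array and lowest on the combination array. Its metformin level was 6.26-fold above diabetic and 8.68-fold above combination. Aurka, Aurora kinase A of the spindle poles, moved less on the metformin array, with 413, 546, 716 and 236, and was 2.32-fold lower on the combination than on the diabetic array. Of the spindle checkpoint, Bub1 had 204, [66.7], 580.5 and [81.1] and Bub1b, which encodes BUBR1, had 359.9, [40.0], 259.9 and [31.6]. Both were thus seen on the control and metformin arrays and not on the other two, with metformin at least 4.94-fold and 2.21-fold above diabetic. Pbk, a kinase active in mitosis, had [93.6], [53.9], 534 and [53.7], seen on the metformin array only and there at least 4.55-fold above diabetic. Ttk, the MPS1 checkpoint kinase, was also seen only there, with a bound of 1.55-fold over diabetic. That bound is a mean over the probes seen there. They had [28.4], [24.1], 313 and [22.2] at the brighter and [40.4], [29.3], 107 and [22.3] at the dimmer. Aurkb, the passenger complex kinase, lost its metformin spot as an outlier and lay within 2-fold on the other arrays.

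Genes of centromeres and chromosome structure held the largest difference of all members. Cenpm, a subunit of the constitutive centromere complex, had scaled signals of 1639, 359.8, 13444 and 13745. It was 37.4-fold higher on metformin than on diabetic (log2 5.22 ± 0.20) and 38.2-fold higher on combination than on diabetic (log2 5.26 ± 0.20). The treated arrays were level with each other (log2 0.03 ± 0.16), so Cenpm kept on the combination array a level that most G2/M members did not; it rests on 1 probe. Mki67, the proliferation marker Ki-67 that coats mitotic chromosomes, had 2683, 440.0, 3571 and 494. It was high on control and metformin and low on the other two, 8.12-fold higher on metformin than on diabetic and 6.10-fold lower on diabetic than on control. Top2a, the topoisomerase that untangles sister chromatids, had 177, [73], 747 and [73.6] at one probe and 624, [103], 1437 and [61] at the other, the same order, and was at least 8.82-fold higher on metformin than on diabetic. Cenpe, a kinetochore motor, had 252, 246, 682 and [121]. Cenpf, a kinetochore protein, had [145], [84.6], 372 and [75] at one probe and [138], [66.4], 299 and [68.4] at the other, seen on the metformin array only. Ncapg, of the condensin I complex, had 1281, 868, 1422 and 643, with combination the lowest at 2.21-fold below metformin. Cenpa, the centromeric histone, stayed within 0.87 in log2.

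Spindle motors and cytokinesis genes followed. Kif20a, a kinesin of the central spindle, had scaled signals of 491, 676, 2094 and 440.4, 3.10-fold higher on metformin than on diabetic. Nusap1, which binds spindle microtubules, had 205, 150.3, 882 and 170.1 (log2 2.55 ± 0.32). Prc1, which bundles the central spindle, had 152, [115], 1128 and [46.8] at its brighter probe. These were each highest on the metformin array, and so was Tpx2, the activator of Aurora A, with [145], [106], 798 and [72.9]. For Prc1 and Tpx2 the metformin level was at least 6.28-fold and 6.79-fold above diabetic. Kif11, the motor that separates the poles, had [116], [85.7], 243 and [86.8], at least 2.06-fold above diabetic. Kif23, a kinesin of the midbody, had 517, 185, 916 and 291 at one probe and 346, 185, 313 and 219 at the other. Both probes were highest on control or metformin, and the first differed more between arrays than the second. Stmn1, which destabilises microtubules, was the 1 member at least 2-fold higher on the diabetic than on the control array, with 3877, 7997, 10665 and 4269.6 at the probe measured on all 4. There it was 2.06-fold above control, a call that was lost when arrays were scaled by the median of probes above background on all 4. Ect2, the exchange factor that starts the cleavage furrow, had 1807, 1257, no value and 642 at its brighter probe, lowest on the combination array, at 2.81-fold below control. Its dimmer probe, at [91.7], [50.6], 150 and [29.6], was seen on the metformin array only. Kif2c, a microtubule depolymerase, has probes that disagree, at [55.1], [90.2], 257 and [104] at one probe and 376, 316, 230.2 and 283 at the other. Of the 3 Hmmr probes, which report a spindle protein, 2 were not above background on any array, and the third lost its spot as an outlier on 3 arrays.

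The anaphase-promoting complex was represented by an activator and by its ubiquitin-conjugating enzyme. Ube2c, the enzyme, had scaled signals of 1686, 1627, 4756 and 473, 2.92-fold higher on metformin than on diabetic and 10.1-fold lower on combination than on metformin (log2 -3.33 ± 0.18). It was also 3.44-fold lower on combination than on diabetic. Cdc20, the activator, has 2 probes that disagree: 547, 706, 3913 and 398 at one and 1753, 2183, 3046 and 3189.8 at the other. The first followed Ube2c, whereas the second was as high on the combination as on the metformin array. With the brighter probe alone, the combination minus metformin difference of Cdc20 turned from -1.62 to 0.07 in log2.

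Of the 54 members, 39 differed by at least 2-fold between some pair of arrays, measured or as a bound, and 15 did not. The same count was not made over all genes, so whether 39 of 54 is more than usual was not tested. These 15 were 8 G1/S genes (Mcm7, Cdc6, Cdc45, Gins1, Pcna, Rrm1, Tyms and E2f1) and 7 G2/M genes (Cdk1, Cenpa, Aurkb, Kif2c, Ttk, Cks2 and Hmmr). For Cdk1, Aurkb and Hmmr the metformin spot of the bright probe had been dropped as an outlier, so the array that was highest for most members is missing from their range. Ttk is among the 15 on a bound of 0.72 in log2, averaged over a brighter and a dimmer probe. The brighter had 313 on the metformin array and [24.1] on the diabetic. Where the 15 had a measured difference, the largest ran from 0.30 for Pcna to 0.96 for Cdc45 in log2. Some calls were lost under at least 1 of the other processing settings. From diabetic to metformin these were Mcm4, Uhrf1 and Cdc20, and from metformin to combination Mcm4, Kif23, Ncapg and Cdc20. In combination minus diabetic they were Cdkn3 and Mcm5, and in diabetic minus control Kif23 and Stmn1. Against control they were Bub1, Cdc20 and Rrm2 on the metformin array, and Ccna2 and Mcm2 on the combination array.

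The RefSeq promoter table of GRCm38.p6, with 250 bases before and 50 after each start site, holds 43 of the 54 members. It has no entry matched for Mcm4, Gins1, Gins2, Ccne2, Ccna2, Aurkb, Kif20a, Foxm1, Tpx2, Pbk and Stmn1. Both strands were searched for the CHR (TTTGAA), the CCAAT box (CCAAT) and E2F sites (TTTGGCGC, TTTCGCGC, TTTCCCGC, TTTGCCGC, TTTGGCGG and TTTCCCGG), and E2F sites on opposite strands can overlap each other. The 2 phases carried different letters. A CHR was present in 20 of 27 G2/M promoters (74.1%) and in 2 of 16 G1/S promoters (12.5%), against 20.2% of the promoters of 27025 genes. An E2F site was present in 7 of 16 G1/S promoters (43.8%) and in 4 of 27 G2/M promoters (14.8%), against 4.55%. A CCAAT box was present in 24 of 27 G2/M promoters (88.9%) and in 10 of 16 G1/S promoters (62.5%), against 41.1%. Cell cycle genes outside the members divided in the same way for the CHR and E2F sites, with a CHR in 29 of 45 other mitosis genes (64.4%) and 5 of 36 other replication genes (13.9%), and an E2F site in 16 of the latter (44.4%) and 7 of the former (15.6%). For the CCAAT box they lay close together, at 27 of 45 (60%) and 20 of 36 (55.6%). A match is a run of letters and was not tested as a binding site.

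**Figure D4:**
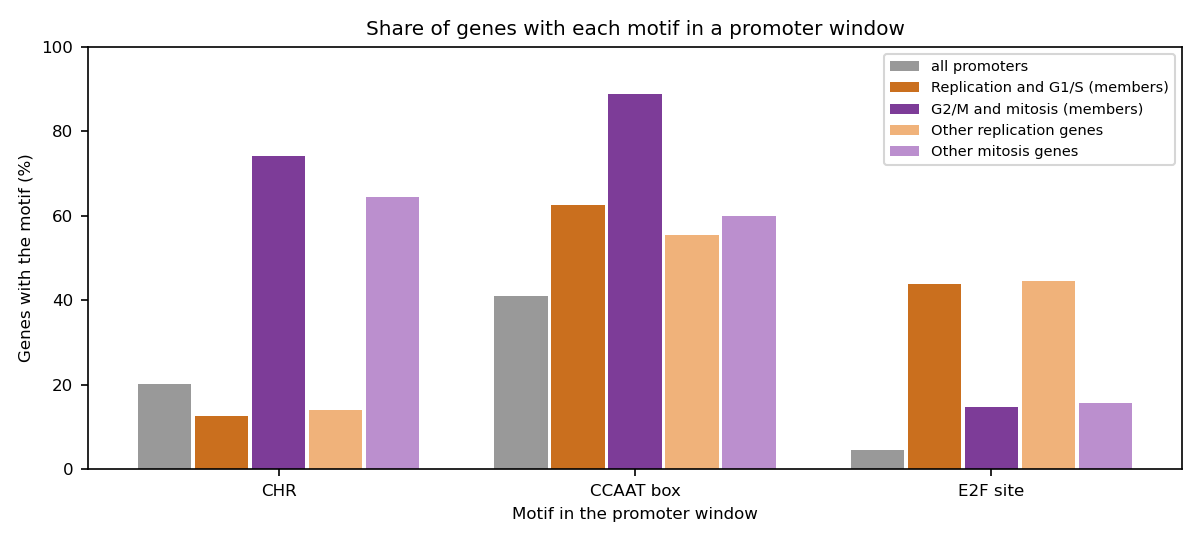
Share of genes (y axis, percent) whose 300-base promoter window holds a CHR, a CCAAT box or an E2F site (x axis), for all promoters, the members of each phase and the other replication and mitosis genes. The CHR bars of both mitosis sets, at 74.1% and 64.4%, exceed the 20.2% of all promoters, and the E2F bars are highest in the replication sets.

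The promoters of 4 G2/M members are shown beside these counts. Cdkn3 and Mki67 were among the members with the largest metformin differences and hold both a CHR and CCAAT boxes. Cdc20 has a CHR just before its start site although its probes disagree, and Cenpm, with the largest difference, holds no CHR. Ccnb1, Birc5 and Nusap1, not shown, hold no CHR either, with metformin minus diabetic differences of 3.18, 2.65 and 2.55 in log2. Whether a CHR goes with the size of the difference was not tested. Capitals mark CHR, CCAAT and E2F matches on either strand, in the 200 bases before the start site, 5′ to 3′ on the gene's strand.
Mki67, chr7:135716380-135716579, minus strand: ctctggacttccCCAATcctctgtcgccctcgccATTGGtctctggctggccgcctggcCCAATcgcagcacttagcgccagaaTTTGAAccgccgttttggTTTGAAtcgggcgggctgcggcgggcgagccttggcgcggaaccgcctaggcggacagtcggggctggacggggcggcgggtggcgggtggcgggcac
Cdkn3, chr14:46760341-46760540, plus strand: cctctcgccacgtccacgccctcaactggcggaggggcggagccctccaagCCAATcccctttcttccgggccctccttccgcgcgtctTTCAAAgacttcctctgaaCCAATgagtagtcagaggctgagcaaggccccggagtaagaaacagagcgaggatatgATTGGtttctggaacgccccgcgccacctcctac
Cdc20, chr4:118437344-118437543, minus strand: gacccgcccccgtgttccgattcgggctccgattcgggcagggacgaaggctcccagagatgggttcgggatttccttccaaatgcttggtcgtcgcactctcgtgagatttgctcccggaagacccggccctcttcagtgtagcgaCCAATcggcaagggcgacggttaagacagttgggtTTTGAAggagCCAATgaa
Cenpm, chr15:82244337-82244536, minus strand: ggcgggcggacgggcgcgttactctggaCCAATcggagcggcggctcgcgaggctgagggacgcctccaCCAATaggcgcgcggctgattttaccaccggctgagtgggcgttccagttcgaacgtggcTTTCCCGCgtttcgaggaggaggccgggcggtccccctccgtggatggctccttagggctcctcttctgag
In Mki67, CHR matches start at -116 and -98, downstream of 3 CCAAT boxes. In Cdkn3 the CHR lies on the other strand from -111, and in Cdc20 it starts at -18 between 2 CCAAT boxes. Cenpm has 2 CCAAT boxes, at -172 and -131, and an E2F site at -71.

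Other genes of the pathway, taken from lists of known function, divided in the same way. Of 52 other mitosis genes, 29 were measured on both the metformin and diabetic arrays, with a median of 1.05; 15 were at least 2-fold higher, 0 lower by as much, and 9 more had a bound at least 2-fold higher. The 4 with the largest measured differences were Ckap2, of spindle microtubules, Ncaph, of condensin I, Knstrn, of the kinetochore, and Cdca3, of mitotic entry. Scaled signals of these other genes, here and below, are averages over all of a gene's probes, dim ones included, and carry no brackets. They can therefore differ from the measured differences, which leave dim probes out. These signals were 152, 658, 4588 and 604 for Ckap2 and 223, 70.1, 513 and 155 for Ncaph. Those of Knstrn were 238, 209, 1193 and 152 and those of Cdca3 475, 576, 2617 and 339.7. All 4 peaked on the metformin array. Cdc25b, the phosphatase that activates CDK1, went the other way, seen on the diabetic array only. On the combination array, 17 of 28 measured were at least 2-fold lower than on metformin, with a median of -1.29.

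Other replication genes moved little. Of 44, 38 were measured on both the metformin and diabetic arrays, with a median of 0.27; 5 were at least 2-fold higher and 0 lower by as much. Chaf1a, a histone chaperone of replicated DNA, had scaled signals of 274, 226, 1399.9 and 1215. Dbf4, the activator of the CDC7 kinase that fires origins, had 666, 279, 1139.7 and 1274. Both were as high on the combination as on the metformin array to within 2-fold, as were Cdt1 and Cenpm. Pole, the leading-strand polymerase, had 315, 388, 1267 and 539, and Lig1, the ligase of Okazaki fragments, had 684, 671, 2038 and 1077; these were highest on the metformin array.

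Among 25 regulators of G1, the median over 21 measured was 0.35, metformin minus diabetic, with 2 at least 2-fold higher. These were E2f8, a repressor of the E2F family, at 4485, 593, 1659 and 752, and Tfdp2, an E2F partner, at 1439, 1035, 2188 and 3496. E2f8 was highest on control and Tfdp2 on combination. Of 7 inhibitors of CDKs, 6 were measured and all 6 were above control on the diabetic array, with a median of 0.74 and 1, Cdkn1c, at least 2-fold higher. From diabetic to metformin their median was 0.32, with 2 at least 2-fold higher, while Cdkn1b, Cdkn2c and Cdkn2d differed by 0.10 or less, about the technical SD or below it. Cdkn2b, which encodes p15, had 328, 417, 867 and 167 and Cdkn1c, which encodes p57, had 1705, 3785, 7747 and 6285. Cdkn2a was not above background on any array.

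**Figure D5:**
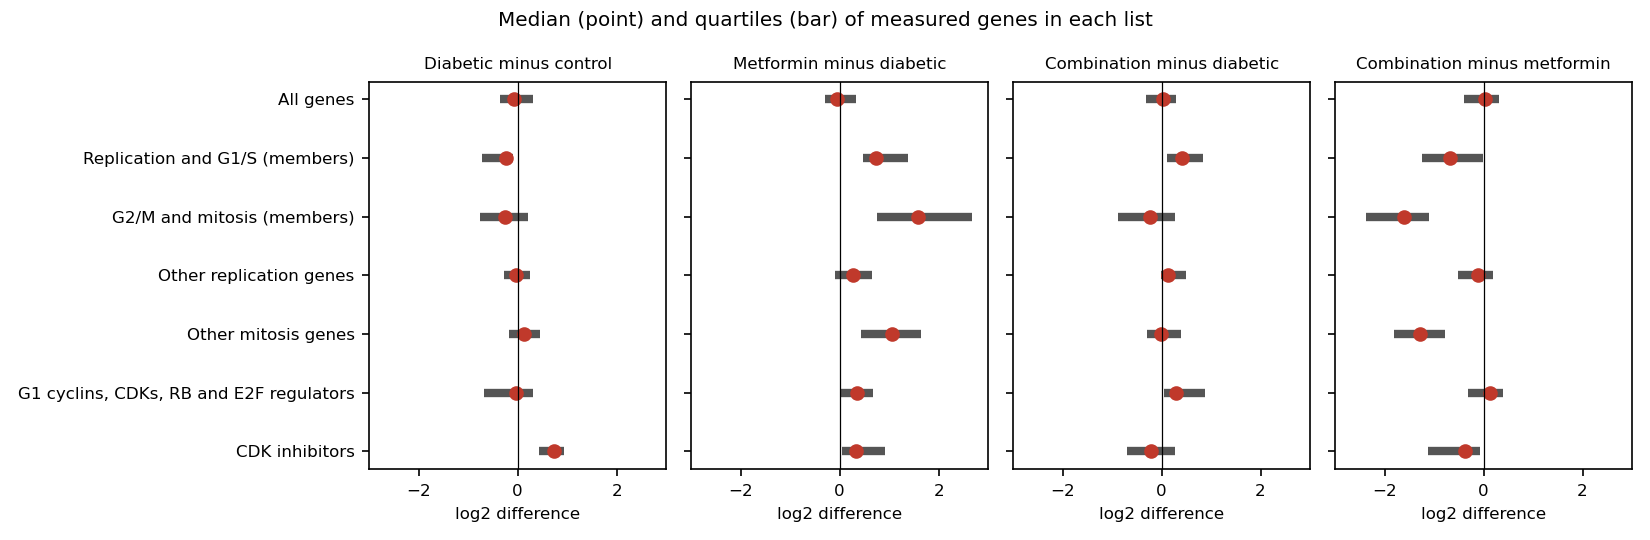
Median (point) and quartiles (bar) of the log2 difference (x axis) over measured genes of the cell cycle lists and of all genes (y axis) in 4 comparisons of arrays. Of the lists drawn, both mitosis lists lie furthest right in metformin minus diabetic, with medians of 1.59 and 1.05, and furthest left in combination minus metformin, with -1.61 and -1.29.

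Markers of some cell types moved with these genes too, while the sums of most other types were highest on the control array. The summed signal of 14 lymphocyte markers was 12781, 6429, 19416 and 9637, and that of 13 stellate cell and matrix markers was 90818, 47712, 99338 and 70474. Both were thus highest on metformin and lowest on diabetic. Of 12 lymphocyte markers measured on metformin and diabetic, 7 were at least 2-fold higher, with a median of 1.58, and 9 of 12 were at least 2-fold lower on combination than on metformin. Nkg7 and Gzma, of cytotoxic cells, were higher on metformin than on diabetic by 4.02 and 3.59 in log2, and the B cell marker Cd79b by 1.31. Not all lymphocyte markers rose: 9 of the 12 were above 0, and the lowest was at -0.32. Against control, 6 of 13 were at least 2-fold higher on metformin and 2 at least 2-fold lower. The B cell marker Ms4a1 was seen on the metformin array only, whereas Cd79a, of B cells, and Klrb1c, of NK cells, were not above background on any array. Of 12 stellate and matrix markers, 9 were at least 2-fold higher on metformin than on diabetic, with a median of 1.46. The summed signal of 12 Kupffer cell and macrophage markers was 212685, 144726, 195341 and 125190.0, and that of 10 endothelial markers 88932, 61981, 80432 and 77124. For 9 neutrophil and myeloid precursor markers it was 25208, 9578, 13836 and 5277, for 10 erythroid markers 130277, 77694, 87952 and 102200.0 and for 9 cholangiocyte and progenitor markers 9745, 8569.6, 17194 and 7149. Acinar markers, enzymes of the exocrine pancreas, summed to 376859, 42837, 95455 and 18717 over 19 genes, highest on control. Of 18 measured on metformin and diabetic, 13 were at least 2-fold higher, with a median of 1.89, and 8 of 10 were at least 2-fold lower on combination than on metformin, with a median of -2.93 and 8 more bounds of that size. The acinar factor Ptf1a was not above background on any array. Hepatocyte markers summed to 484400.0, 363911, 301398 and 373710.0 over 9 genes and had a median of -0.33 from diabetic to metformin, with 0 of 12 at least 2-fold apart. The part of these cells in the members' differences was not tested.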

How the data were processed

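The deposited scanner files give an intensity for every spot in the red channel, written by Feature Extraction 11.5.1.1 per the file headers; version 10.7 of Agilent Feature Extraction stands in the submitters' processing notes. Values here start from the processed signal, which that software corrected for background. The authors' deposited value table is on a log2 scale: each column followed log2 of the same array's processed signal with a slope of 0.99 to 1.01, and each has a median of 7.84. The sources used here do not say how the authors normalized and centred it, and it served as an alternative only.

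Levels were log2 processed signals minus log2 of the array's 75th percentile over all non-control spots. Spots marked as outliers (non-uniform, or outlying among repeats), 2.18% to 5.35% an array, were dropped from probe values but kept in the percentile, since they are mostly bright and unequal in number between arrays. A probe counted as well above background where at least 50% of its kept spots were. Gene differences average the probes above background on both arrays, and 2-fold means an absolute log2 difference of at least 1. A gene seen on only 1 of the 2 arrays compared has a bound. This is its level there against the dim probe's value on the other array or the lowest signal above background on that other array, whichever is higher. Where more than 1 of its probes was seen, the bound is their mean.

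Probes carry accessions without symbols; RefSeq's gene table (GRCm38.p6) named 33762 of 56605, and the other 22843 enter no gene count. A further marker is not reported here. Without replicates there was no test. The self-test on simulated data recovered the seeded changes. Those were put into bright genes on copies of the control array, so it does not cover dim members or bounds. Signals on every array are given for members at least 2-fold apart between some pair of arrays, and for up to 4 genes with the largest 2-fold difference, metformin minus diabetic, from each list of other genes. Members, lists and motifs were chosen with earlier results of these data known. The 9 alternatives changed the array scale, the outlier spots, the background correction, the filter on dim probes or the choice of probe. Normexp (offset 50) used the median spot signal, as the files hold no mean signal. Python 3.11.15, numpy 2.4.6, pandas 2.3.3, scipy 1.17.1 and matplotlib 3.10.9 were used.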

Additional observations from a re-analysis of the deposited data

Results flagged for a closer look

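Spots dropped as outliers carry signals that the comparisons leave out. On the metformin array the dropped spot of Gins2 was 3.28-fold above the same probe on the control array, that of Cdk1 4.19-fold and that of Aurkb 2.52-fold. On the diabetic array the dropped spot of Stmn1 was 2.37-fold above control. All 4 were well above background and marked non-uniform. The software's own errors for them were 0.115 to 0.135 in log2, and how far the non-uniformity affects their values was not tested. Other dropped member spots were those of Mcm7 on control, Rrm2 on diabetic, Ect2 on metformin (1.62-fold above control) and Hmmr on the control, diabetic and metformin arrays.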

How the results depend on the processing

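Over 9 alternatives, 94 values for the counts and medians of the members stayed within 1.5 times the count or the technical spread of the median, and 14 did not. Scaling by the 75th percentile of kept spots, which moves the median of all genes to -0.21 in combination minus diabetic and in combination minus metformin, gave 7 members at least 2-fold lower in the former and member medians of -0.0671 and -1.32. It also raised the share of lower among all genes at least 2-fold apart in combination minus diabetic from 61.7% to 81.8%. Median scaling left 0 members at least 2-fold higher in diabetic minus control. Normexp gave medians of 1.09 for metformin minus diabetic and -0.96 for combination minus metformin. Without the filter on dim probes, 32 of 52 members were at least 2-fold higher in the former. In the latter, 33 of 53 were at least 2-fold lower, and the 2 medians were 1.49 and -1.45. Under the same setting the medians were -0.44 for diabetic minus control and 0.0176 for combination minus diabetic. Using probes above background on all 4 arrays, or the brightest probe, put the metformin minus diabetic median at 1.14. Cdc20 turned to 0.0663 in combination minus metformin with the brightest probe. In metformin minus diabetic, 18 of the 21 members at least 2-fold higher stayed so under every alternative that measured them, the exceptions being Cdc20, Mcm4 and Uhrf1; in combination minus metformin, 16 of 20 did, the exceptions being Cdc20, Kif23, Mcm4 and Ncapg. Apart from these constructions, the cause was not tested. No paired analysis was possible because the groups share only 1 replicate number. Members near background, 12 of them unseen on the combination and not the metformin array, have bounds only.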
